A study of Mus musculus with 23 samples.

Results

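The 37 skeletal muscle contractile and metabolic genes described here were chosen from the 55401 Ensembl identifiers of a count table of mouse tumour pieces. They were chosen by their measured levels in these same libraries, because muscle transcripts differed widely between them in earlier results. All 37 were found in the table, and all passed the filter on low counts that left 24440 genes for testing. The list holds 13 genes typical of fast fibres, 7 typical of slow fibres, 9 sarcomere genes shared by fibre types, 2 calcium-release genes besides those already counted among the fast ones, and 6 energy genes.

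The tumours were grown in the flanks of male C57BL/6 mice aged 8 to 10 weeks from TC2Ras cells, a TRAMP-C2 mouse prostate adenocarcinoma line transduced with an activated Ras. In vivo, 10 µg of plasmid per muscle was delivered to the tibialis anterior, a leg muscle, by sonoporation, which uses ultrasound and microbubbles. The plasmid was pTSTA-IL27pepL, which encodes the cytokine IL-27 with a peptide tag (IL27v, 11 libraries), or pTSTA-ctrl, an empty vector (EV, 12 libraries). Tumour pieces were then exposed ex vivo to cabozantinib, a kinase inhibitor; docetaxel, a microtubule drug; IL-27; cabozantinib and IL-27 together; or an antibody to the checkpoint ligand PD-L1. Other pieces were kept in media. There were 2 libraries per combination, but only 1 (labelled replicate 2) for IL-27 exposure of IL27v tumours. All animals carried the same tumour line and received a plasmid, so no group lacks the muscle injection. The sources used here give neither the exposure times nor whether libraries shared a tumour or an animal. RNA came from sections of whole tumour pieces, and the sequenced material was labelled tumour.

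Skeletal muscle contracts when myosin heads pull on actin filaments inside sarcomeres, the repeating units of a muscle fibre. Calcium released from the sarcoplasmic reticulum binds troponin C and so uncovers actin, and creatine kinase and glycolysis resupply ATP. Fast and slow fibres build the same machine from different paralogues of myosin, troponin and myosin-binding protein, and the mouse tibialis anterior is known as a fast muscle.

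The promoter sequence was not used to choose the genes, and the promoters of 4 of them are shown because they set an actin, an energy enzyme and a myosin whose levels separated the libraries (Acta1, Ckm and Myh4) beside a gene whose level did not (Tpm2). The sequences run 5′ to 3′ along the gene, from 250 bases before to 50 bases after the RefSeq transcription start, in build GRCm38.p6. Acta1, skeletal alpha-actin, lies at chr8:123894726-123895025 on the minus strand, and Ckm, muscle creatine kinase, at chr7:19410844-19411143 on the plus strand. Myh4, the fast 2B myosin heavy chain, lies at chr11:67237562-67237861 on the plus strand, and Tpm2, beta-tropomyosin, at chr4:43523505-43523804 on the minus strand. Capitals mark matches on either strand to 4 motifs, the E-box CAGCTG bound by MyoD-family factors, the MCAT motif CATTCC bound by TEAD factors, the MEF2 motif and the CArG box bound by serum response factor. No matches overlapped in these windows.
Acta1: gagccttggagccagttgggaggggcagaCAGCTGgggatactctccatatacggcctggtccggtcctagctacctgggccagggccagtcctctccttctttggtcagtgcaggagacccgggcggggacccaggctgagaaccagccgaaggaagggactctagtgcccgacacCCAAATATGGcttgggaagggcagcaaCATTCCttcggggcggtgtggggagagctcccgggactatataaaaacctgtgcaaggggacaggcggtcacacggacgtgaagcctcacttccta
Ckm: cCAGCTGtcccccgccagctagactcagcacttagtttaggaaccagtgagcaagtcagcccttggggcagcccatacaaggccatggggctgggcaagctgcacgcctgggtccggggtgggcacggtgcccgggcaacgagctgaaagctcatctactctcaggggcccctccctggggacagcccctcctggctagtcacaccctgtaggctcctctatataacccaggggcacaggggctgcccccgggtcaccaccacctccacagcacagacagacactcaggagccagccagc
Myh4: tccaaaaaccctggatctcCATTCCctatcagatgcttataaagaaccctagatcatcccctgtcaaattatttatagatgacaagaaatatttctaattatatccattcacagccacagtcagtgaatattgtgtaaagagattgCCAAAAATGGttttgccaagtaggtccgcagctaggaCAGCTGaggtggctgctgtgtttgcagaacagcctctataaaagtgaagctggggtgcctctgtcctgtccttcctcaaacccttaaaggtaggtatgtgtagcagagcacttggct
Tpm2: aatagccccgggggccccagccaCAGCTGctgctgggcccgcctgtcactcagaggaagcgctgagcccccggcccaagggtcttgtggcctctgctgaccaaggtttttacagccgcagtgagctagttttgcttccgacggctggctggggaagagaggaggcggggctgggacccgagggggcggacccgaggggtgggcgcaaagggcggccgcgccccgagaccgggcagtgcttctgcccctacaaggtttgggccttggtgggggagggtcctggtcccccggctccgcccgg

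The Acta1 window held an E-box, a CArG box and an MCAT motif starting 221, 73 and 46 bases before the start, and the Myh4 window held the same 3 kinds at 67, 104 and 231 bases before it. The Ckm and Tpm2 windows each held 1 E-box, at 249 and 227 bases before the start. RefSeq windows were matched for 29 of the 37 genes, with 35 windows in all. The E-box was present in 57.1% of these windows, against 16.3% of all 32851 mouse windows of the same length used here. Windows on chromosome 18, where Myot lies, were left out throughout. The MCAT motif was in 31.4% of the muscle gene windows and 14.7% of all windows. The CArG box was in 8.57% of the muscle gene windows, those of Acta1, Myh4 and Myl3, and in 1.63% of all windows. The MEF2 motif was in 2.86%, the window of Ttn, and in 0.557% of all windows. Tpm2 thus shared the most frequent motif with the other genes, and these matches are a description of letters and not of bound sites.

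Levels are TMM-scaled CPM (counts relative to library size), in which 1 CPM stood for 36.3 to 86.5 counts, and library totals ran from 47641781 to 83088346 counts. A gene is given as the lowest, median and highest of the 11 IL27v and then of the 12 EV libraries. Some libraries stood apart from others with the same labels. IL27v docetaxel 1 had 27.2% of its counts in 1 ribosomal RNA gene, whereas the largest share taken by a single gene in the other 22 libraries was 1.48 to 3.02%. Its keratinocyte markers summed to 3660 CPM, close to the 3530 CPM of IL27v docetaxel 2 and above the 772 CPM of IL27v anti-PD-L1 1. The other 8 IL27v libraries had 13.5 to 26.7 CPM of these markers, and the EV libraries had 4.26 to 14.2 CPM.

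Skeletal muscle transcripts were abundant in nearly all IL27v libraries and close to absent in most EV libraries, but not in all. They were summed over the 33 of the 37 genes that edgeR called higher in IL27v than in EV. This sum came to 706 to 1200 CPM in 10 IL27v libraries and to 47.5 CPM in IL27v docetaxel 1. Among the EV libraries the sum was 656 CPM in anti-PD-L1 2, and 690 and 596 CPM in cabozantinib plus IL-27 1 and 2. It was 30.5 CPM in EV docetaxel 1, 29.7 CPM in EV IL-27 1 and 3.05 to 9.47 CPM in the other 7 EV libraries. For each of the 33 genes, the lowest of the 10 IL27v libraries lay above the highest of those 9 EV libraries, and so did the lowest of the 3 high EV libraries. The 33 genes were picked by a call on these same values, so their separation is a description and no support. These library sets were read off the muscle levels themselves, so they are named here and not averaged or tested. The 2 replicates of EV anti-PD-L1 lay on opposite sides of this gap, as did the 2 replicates of IL27v docetaxel. In bulk RNA, fewer muscle cells and less RNA per muscle cell cannot be told apart.

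**Figure D1:**
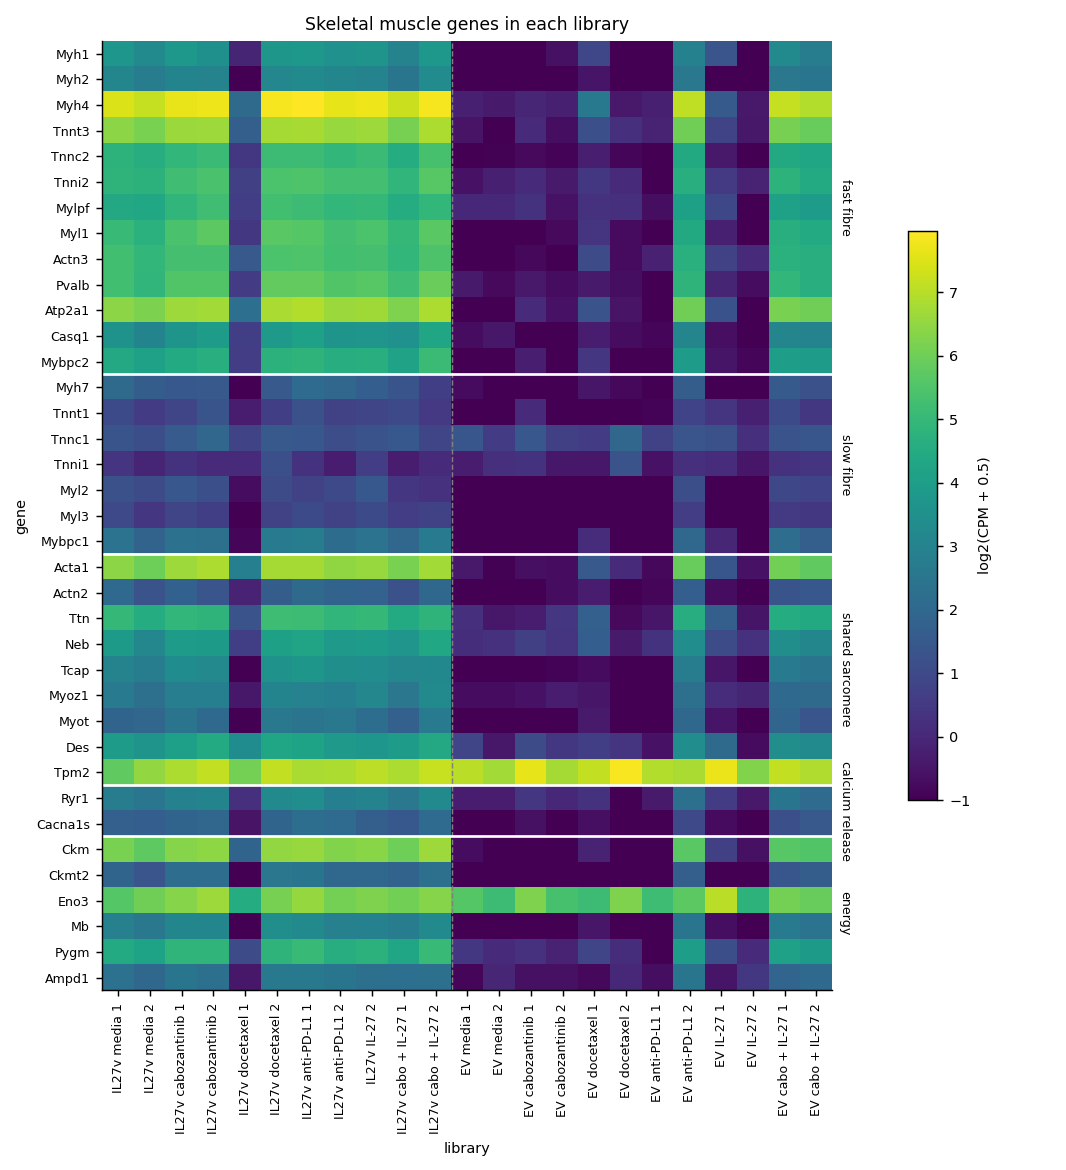
Level of each of the 37 genes (rows, grouped by role) in each of the 23 libraries (columns, IL27v left of EV), as log2(CPM + 0.5). Most rows are bright in 10 IL27v and 3 EV libraries and dark in the rest, while Tpm2 and Eno3 are bright and Tnnc1 and Tnni1 dim throughout.

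All 37 genes together made up 0.0107 to 0.148% of the counts of an IL27v library and 0.0113 to 0.0888% of those of an EV library. The log2 of their summed level was 9.92 ± 0.957 in IL27v and 8.17 ± 1.05 in EV (mean ± SD, n = 11 and 12), a difference of 1.76. The means differ by more than either SD, and the ranges overlap. EdgeR called 33 of the 37 genes higher in IL27v than in EV, where 2.28% of all genes tested were called higher. That contrast chose the genes, so no p is given for them, and the call serves only to name the 33 genes that are summed.

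Among the thick filament genes of fast fibres, Myh4 had 3.75, 205 and 250 CPM in IL27v, against 0.261, 0.428 and 145 CPM in EV. The estimated vector difference was 5.46 ± 0.79 (log2, ± an approximate SE, as in all such values below). This SE is the size of the estimate divided by the square root of the test's F statistic. For genes at 0 in whole groups it therefore also depends on a small added count. Myh4 had the highest CPM of all 33 genes in each of the 13 muscle-rich libraries. Myh4 (ENSMUSG00000057003) spans 67238029 to 67260446 on the plus strand of chromosome 11 in GRCm38, next to Myh1 (67200052 to 67224575) and Myh2 (67171027 to 67197517), which were lower. Myh1, the 2X myosin, had 0.441, 11.9 and 13.4 CPM in IL27v and 0, 0.0815 and 9.09 CPM in EV. Myh2, the 2A myosin, had 0, 7.83 and 9.58 CPM in IL27v and 0, 0 and 5.57 CPM in EV, with 8 EV libraries at 0. The coding sequences of these myosins are close copies, so how reads were divided among them is uncertain. The fast light chains Mylpf and Myl1 had medians of 30.0 and 41.5 CPM in IL27v and of 0.694 and 0.0941 CPM in EV. Mybpc2, fast myosin-binding protein C, had a median of 23.5 CPM in IL27v and 0.128 CPM in EV.

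The fast troponin genes were as sharply divided. Tnnt3, fast troponin T (chromosome 7, the gene with the highest per-length level after Acta1), had 2.76, 97.1 and 116 CPM in IL27v, against 0, 0.622 and 69.0 CPM in EV. Tnni2, the inhibitory subunit, had a median of 38.7 CPM in IL27v and 0.567 CPM in EV. Tnnc2, the calcium-binding subunit, had a median of 30.5 CPM in IL27v and 0.0654 CPM in EV. Tnnc2 overlaps Ube2c, a mitotic gene expressed at medians of 78.0 CPM in IL27v and 51.1 CPM in EV, on the opposite strand. Tnnc2 stayed near 0 in 9 EV libraries beside that expressed neighbour, at no more than 0.348 CPM. Actn3, the fast-fibre alpha-actinin of the Z-disc, had 2.34, 39.1 and 45.1 CPM in IL27v and 0, 0.465 and 26.0 CPM in EV.

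Calcium handling followed the same libraries. Atp2a1, the calcium pump SERCA1, had 4.39, 99.4 and 121 CPM in IL27v and 0, 0.376 and 70.8 CPM in EV, and its vector difference was 6.38 ± 1.01. Pvalb, the calcium buffer parvalbumin of fast fibres, had 0.993, 45.8 and 59.6 CPM in IL27v and 0, 0.273 and 30.1 CPM in EV. Casq1, the calcium-storing calsequestrin, had a median of 12.1 CPM in IL27v and 0.136 CPM in EV. The release channel Ryr1 and its voltage sensor Cacna1s had medians of 7.27 and 3.23 CPM in IL27v and of 0.629 and 0.0511 CPM in EV.

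The sarcomere genes shared by fibre types fell into 8 that moved with the others and Tpm2, which did not. Acta1, which forms the thin filament, had 6.90, 95.1 and 116 CPM in IL27v and 0.0231, 0.422 and 66.7 CPM in EV. Titin (Ttn) and nebulin (Neb), the giant spring and ruler proteins, had medians of 29.2 and 14.2 CPM in IL27v and of 0.765 and 0.953 CPM in EV. The Z-disc genes Tcap, Myoz1, Myot and Actn2 had medians of 8.92, 6.75, 4.27 and 2.94 CPM in IL27v. In EV the medians of Tcap, Myoz1, Myot and Actn2 were 0.0148, 0.279, 0 and 0.0839 CPM. Des, the intermediate filament desmin, which smooth muscle also makes, had 9.79, 15.2 and 21.6 CPM in IL27v and 0.105, 1.22 and 10.4 CPM in EV. Its 9.79 CPM in IL27v docetaxel 1 was much nearer to the 12.1 CPM of the next IL27v library than was the case for Acta1, at 6.90 against 63.4 CPM.

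Among the energy genes, Ckm had 3.23, 80.8 and 101 CPM in IL27v and 0, 0.138 and 50.4 CPM in EV, and its vector difference was 7.15 ± 0.99. Ckmt2, the mitochondrial creatine kinase of muscle, had a vector difference of 7.57 ± 1.15 and was at 0 in 9 EV libraries and in IL27v docetaxel 1. A count of 0 in a library allows up to 0.0347 to 0.0828 CPM, counting 3 reads and counting error alone. Ckmt2, Ckm and Atp2a1 each had an EV condition with both libraries at 0. The size of their vector differences thus depends on a small added count. Mb, the oxygen store myoglobin, had a median of 7.18 CPM in IL27v and 0 CPM in EV. Pygm, glycogen phosphorylase of muscle, had a median of 26.8 CPM in IL27v and 0.793 CPM in EV. Ampd1, the muscle AMP deaminase, had 0.248, 4.51 and 5.74 CPM in IL27v and 0.0528, 0.339 and 5.11 CPM in EV.

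The slow-fibre genes were low everywhere, and 5 of the 7 separated the same libraries. Myh7, the slow myosin heavy chain, had 0, 2.35 and 3.86 CPM in IL27v and 0, 0.0331 and 2.66 CPM in EV. The slow light chains Myl2 and Myl3 had 0.11 to 2.24 CPM and 0 to 1.5 CPM in IL27v. In EV both were at 0 in 9 libraries, and the 3 muscle-rich EV libraries had 1.23 to 1.72 CPM of Myl2 and 0.869 to 1.03 CPM of Myl3. Tnnt1, slow troponin T, had 0.331, 1.32 and 2.04 CPM in IL27v and 0, 0.201 and 1.5 CPM in EV. Mybpc1, slow myosin-binding protein C, had 0.0552, 4.65 and 6.29 CPM in IL27v and 0, 0 and 4.16 CPM in EV. Tnnc1 and Tnni1, slow troponins C and I, were the exceptions and are described below with Tpm2 and Eno3.

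Levels of different genes were compared per length. In CPM per kb of exon, the IL27v medians of Acta1 and Tnnt3 were 61.9 and 61.3, followed by Pvalb at 44.0, Eno3 at 40.1, Tpm2 at 39.6, Tnnc2 at 38.2 and Myh4 at 34.1. The order within the first 7 held only in part from library to library. In every IL27v library Acta1 and Tnnt3 lay above Pvalb, and Tnnc2 lay above Myh4. Acta1 and Tnnt3 changed places between libraries, as did Pvalb, Eno3, Tpm2 and Tnnc2 among themselves. Eno3 and Tpm2 were also high per kb in EV, with medians of 28.9 and 43.5. Of the 4 myosin heavy chains on the same per-kb scale, Myh4 made up 89.3 to 92.2% in 10 IL27v libraries and 90.8 to 91.3% in the 3 muscle-rich EV libraries. Myh1 made up 4.30 to 5.98% in those IL27v and 4.42 to 5.38% in those EV libraries, and Myh2 2.60 to 3.39% and 2.80 to 3.26%. Myh7 made up 0.304 to 1.30% in those IL27v and 0.976 to 1.22% in those EV libraries.

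The fast and slow versions of 7 proteins were then set side by side. Over troponins T, I and C, both myosin light chains, the heavy chain and myosin-binding protein C, the slow paralogues supplied 1.61 to 3.21% of the per-kb sum in 10 IL27v libraries and 21.4% in IL27v docetaxel 1. They supplied 3.39 to 3.61% in the 3 muscle-rich EV libraries and 19.9 to 73.4% in the other 9. The vector means were 4.3 ± 5.68% in IL27v and 44.4 ± 29.1% in EV (SD, n = 11 and 12), a difference of -40.1 percentage points. This high share came with a near absence of fast transcripts and not with more slow ones. The fast sum was 154 to 260 CPM per kb in the 10 IL27v libraries, and the slow sum was 4.24 to 7.06. In the 9 EV libraries the fast sum was 0.442 to 4.61 CPM per kb, and the slow sum was 0.859 to 3.79.

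The slow remainder in those 9 EV libraries was largely Tnnc1. For troponin C, the slow gene supplied 67.9 to 100% of the pair in these libraries, against 2.52 to 7.03% in 10 IL27v and 6.58 to 8.04% in the 3 muscle-rich EV libraries. The slow light chains Myl2 and Myl3 were at 0 in all 9, and the fast light chain Myl1 was at 0 in 5 of them, where no share exists. Myosin-binding protein C had the highest slow share among muscle-rich libraries, at 11.9 to 15.8% in 10 IL27v and 12.9 to 17.3% in 3 EV libraries.

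**Figure D2:**
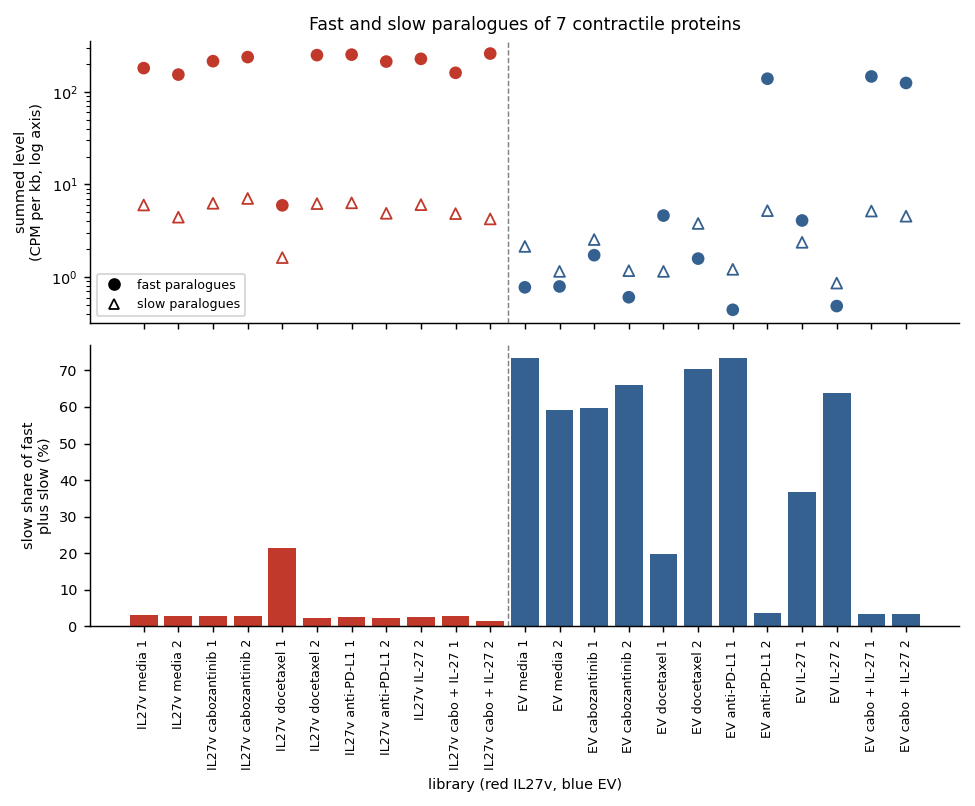
Top, summed level of the fast (filled circles) and slow (open triangles) paralogues of 7 contractile proteins in CPM per kb, log axis, for each IL27v (red, left) and EV (blue, right) library. Bottom, slow share of the sum in percent, which is 1.61 to 3.21% in 10 IL27v libraries, 3.39 to 3.61% in 3 EV libraries and 19.9% or more in the rest.

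The largest genes held nearly constant shares of the muscle transcripts wherever these were abundant, and the small ones varied more. As a share of the summed CPM of the 33 genes, Myh4 took 19.3 to 20.8% in 10 IL27v libraries and 20.3 to 21.1% in the 3 muscle-rich EV libraries. Acta1 took 8.94 to 10.7% in those IL27v and 8.98 to 9.67% in those EV libraries. Tnnt3 took 9.14 to 10.0% and 9.79 to 10.0% in the same order. Among the slow-fibre genes, Myh7 took 0.0921 to 0.424% in those IL27v and 0.311 to 0.406% in those EV libraries. Myl2 took 0.0609 to 0.229% in those IL27v and 0.207 to 0.263% in those EV libraries. The ranges overlapped for 32 of the 33 genes, the exception being Myl1 at 3.73 to 4.80% in IL27v and 3.24 to 3.63% in EV. IL27v docetaxel 1 did not share this makeup. Myh4 took 7.89% and Acta1 14.5% of its muscle transcripts.

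**Figure D3:**
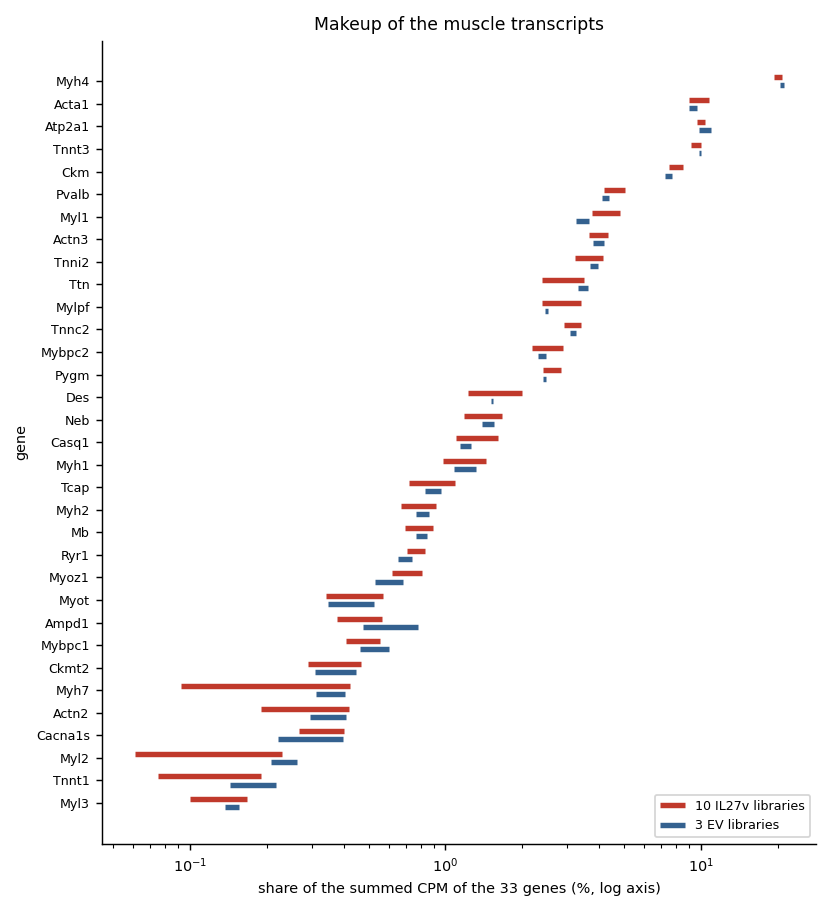
Share of each of 33 muscle genes in their summed CPM (percent, log axis), drawn as the lowest to highest value over 10 IL27v libraries (red, upper bar) and over EV anti-PD-L1 2 and EV cabozantinib plus IL-27 1 and 2 (blue, lower bar). The bars overlap for all genes except Myl1.

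Tpm2, Eno3, Tnnc1 and Tnni1 were also present in muscle-poor libraries, at levels that overlapped those of the muscle-rich ones. For Eno3, Tnnc1 and Tnni1, but not Tpm2, several muscle-poor libraries lay below every muscle-rich one. Eno3 had 51.9 to 68.3 CPM in the 3 muscle-rich EV libraries and 27.4 to 130 CPM in the other 9. Tpm2 had 53.9, 115 and 148 CPM in IL27v and 77.4, 127 and 235 CPM in EV, with a vector difference of -0.32 ± 0.19. Eno3, the beta-enolase of glycolysis, had 22.8, 69.8 and 101 CPM in IL27v and 27.4, 50.3 and 130 CPM in EV, a difference of 0.31 ± 0.25. Its highest level of all was in EV IL-27 1, a library with little Ckm (1.14 CPM). Tnnc1 had 1.30, 1.99 and 3.39 CPM in IL27v and 0.654, 1.89 and 3.36 CPM in EV, a difference of 0.26 ± 0.29. Tnni1 had 0.309, 0.584 and 1.78 CPM in IL27v and 0.185, 0.626 and 1.97 CPM in EV, a difference of 0.29 ± 0.43. The IL27v and EV ranges overlapped widely for all 4. Over the 23 libraries their log2 levels correlated with the mean of all 37 genes at r = -0.15 (Tpm2), 0.53 (Eno3), 0.48 (Tnnc1) and 0.30 (Tnni1), whereas the other 33 reached at least 0.90. The mean includes each gene itself, the libraries share their depth scaling, and the values describe these libraries. The 33 genes were also picked by the vector call on these libraries. Tpm2 is known to be made outside skeletal muscle as well. Tnnc1 overlaps Nisch on the opposite strand, a gene at medians of 327 CPM in IL27v and 301 CPM in EV, and no source used here states whether counting used strand, so its level is uncertain.

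**Figure D4:**
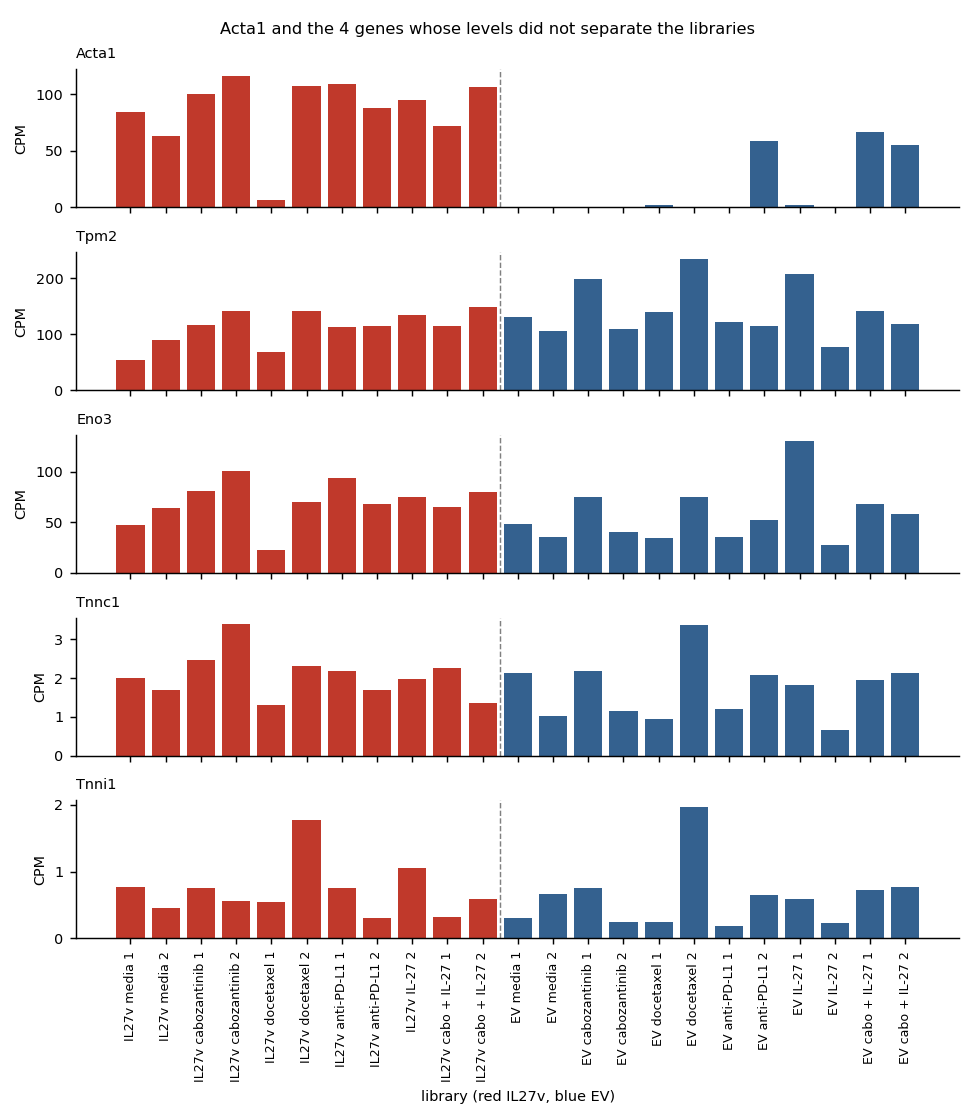
CPM (linear axes from 0) of Acta1 and of Tpm2, Eno3, Tnnc1 and Tnni1 in each library, IL27v (red) left of EV (blue). Acta1 is near 0 in 9 EV libraries, while the other 4 genes have bars of overlapping height on both sides.

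Ex vivo exposures were then compared with media within each vector. The genes were chosen for their spread over these same libraries, so these contrasts and the interactions below are no independent test. In IL27v tumours no exposure moved a muscle gene past the threshold. EdgeR's quasi-likelihood test (Benjamini-Hochberg adjusted p under 0.05 over all genes) called 0 of the 37 for each of 5 exposures: cabozantinib, docetaxel, the PD-L1 antibody, the combination, and IL-27 alone. These exposures called 1.88%, 2.79%, 0.867%, 0.904% and 0% of all genes. At an unadjusted p under 0.05 the count was also 0 in each, beside 13.3%, 14.9%, 10.3%, 9.89% and 7.3% of all genes. DESeq2 called 0 too, where it called 8.97%, 11.1%, 6.22%, 6.42% and 2.71% of all genes. The median log2 difference of the 37 genes was 0.37, -0.40, 0.42, 0.27 and 0.38 for the 5 exposures in that order, beside medians of -0.04 to 0 over all genes. The docetaxel value rests on replicates with 47.5 and 1150 CPM over the 33 genes.

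In EV tumours the muscle genes were far higher after cabozantinib plus IL-27 than in media, but the edgeR test did not call them. Myh4 had 145 and 121 CPM after cabozantinib plus IL-27, against 0.369 and 0.277 CPM in media, a 412-fold ratio of means. Atp2a1 had 70.8 and 65.1 CPM against 0 in both media libraries, at least 1830-fold higher when 3 counts per media library are allowed. Actn3 had 26.0 and 24.8 CPM against 0 in both, at least 684-fold higher. Both replicates lay above both media libraries for 35 of the 37 genes, as they did for 19.7% of all genes tested, and 16 of the 37 were at 0 in both media libraries. EdgeR nevertheless called 0 of the 37, with a lowest adjusted p of 0.594, beside 0.00409% of all genes called. At an unadjusted p under 0.05 it counted 33, beside 3.92% of all genes. DESeq2 called 22 of the 37, all higher, beside 0.715% of all genes. EdgeR with no low-count filter called 33, so these calls change with the setting.

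The other EV exposures differed from media less evenly. EV anti-PD-L1 had Myh4 at 0.369 and 139 CPM in its replicates, against 0.369 and 0.277 CPM in media, and both replicates lay above both media libraries for 5 of the 37 genes, a share near the 11.0% of all genes that did so. EdgeR called 0 of the 37 for anti-PD-L1 (0% of all genes), 32 at an unadjusted p under 0.05 (1.41% of all genes), and DESeq2 called 16 (0.132% of all genes). Cabozantinib, docetaxel and IL-27 likewise gave 0 edgeR calls among the 37, with 0% of all genes called in each. Unadjusted p-values under 0.05 numbered 2, 5 and 4 for these 3 exposures, beside 1.82%, 2.94% and 5.21% of all genes. Of the 37 genes, 7, 4 and 4 were at 0 in both the exposed and the media libraries and could not have been called. DESeq2 called 6, 9 and 9 of the 37 (5 higher and 1 lower for cabozantinib, the others higher), beside 0.0604%, 0.164% and 0.193% of all genes. Each EV exposure was compared with the same pair of media libraries, so these results are not independent of one another.

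Whether an exposure acted differently under the 2 vectors was tested as an interaction, the exposure effect in IL27v minus that in EV. EdgeR called 1 of the 37 genes, Actn3 for cabozantinib plus IL-27 (-13.66 ± 3.03, adjusted p = 0.0343, and 3.39e-33 to 0.0537 under the 5 other settings), beside 1.46% of all genes. Actn3 was at 0 in both EV media libraries, so the size of this value depends on a small added count and is no bound. In IL27v, Actn3 had 30.0 and 43.1 CPM after cabozantinib plus IL-27 and 37.3 and 30.4 CPM in media. For cabozantinib, docetaxel, anti-PD-L1 and IL-27 the interaction gave 0 edgeR calls among the 37, beside 0.0205%, 0.0205%, 0% and 0% of all genes. The counts at an unadjusted p under 0.05 were 2, 2, 23 and 2 for those exposures (7.66%, 6.15%, 7.62% and 4.14% of all genes) and 27 for cabozantinib plus IL-27 (9.59%). The interaction had no estimate for 7, 4 and 4 of the 37 genes with cabozantinib, docetaxel and IL-27, which were at 0 in the EV libraries compared. DESeq2 called 6, 9, 12 and 7 interactions for those 4 exposures (3.22%, 1.32%, 2.87% and 0.251% of all genes) and 18 for cabozantinib plus IL-27 (6.09% of all genes).

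Many other muscle genes, from lists drawn up with earlier results of these data known, were also higher in IL27v, in the contrast that chose the 37. Neither the lists nor the contrast were independent of the 37, so the counts in both lists are a description and no p is given. Of 36 tested genes for other sarcomere and membrane proteins, 34 with an estimate, edgeR called 21 higher and 0 lower, with a median difference of 3.37. Over all genes tested, 2.28% were called higher. Ldb3, a Z-disc adaptor, was at 6.57 CPM in IL27v and 0.262 CPM in EV (medians), and was higher by 3.53 ± 0.41. Myom1, an M-band protein, rose by 1.58 ± 0.23, and Smpx, a small muscle protein, by 6.60 ± 0.83. Hrc, a calcium-binding protein of the reticulum, rose by 6.67 ± 0.95. Smpx and Hrc were at 0 in 9 and 8 EV libraries, so the size of their differences depends on a small added count. Of 14 other metabolic genes 5 were called higher and 0 lower, among them Pgam2, the muscle phosphoglycerate mutase, which rose by 2.95 ± 0.38. Over both lists the vector call was made for 26 of 50 genes, and for 31 when EV anti-PD-L1 2 was left out or 16 when EV cabozantinib plus IL-27 1 was. The remaining genes include Atp2a2 and Tpm1, which had medians of 514 and 483 CPM in IL27v and of 479 and 410 CPM in EV.

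The core regulators of muscle formation were at or near 0 in muscle-rich and muscle-poor libraries alike. Of 16 regulators and synaptic genes, 10 were tested and 6 had an estimate, of which edgeR called 0 higher and 1 lower (3 in either direction at an unadjusted p under 0.05). DESeq2, which tested 6, called 1 higher and 1 lower. The gene edgeR called was Chrnb1, an acetylcholine receptor subunit, with medians of 42.4 CPM in IL27v and 67.8 CPM in EV (-0.78 ± 0.13, edgeR adjusted p = 0.0048). The satellite cell gene Pax7 was at 0 in all 11 IL27v libraries and reached at most 0.058 CPM in EV, and Myf5 reached at most 0.109 CPM in IL27v and 0.116 CPM in EV. Myf6, the factor of mature fibres, had 0, 0.308 and 0.71 CPM in IL27v and 0, 0 and 0.449 CPM in EV. The differentiation factors Myod1 and Myog reached 0.763 and 0.224 CPM in IL27v and 0.0873 and 0.0582 CPM in EV. The fusion genes Mymk and Mymx were at 0 in 10 and 11 of 11 IL27v libraries and in all 12 EV libraries. The embryonic myosin Myh3 was at 0 in 9 of 11 IL27v and all 12 EV libraries. Myh8, another developmental myosin, differed, with 0, 0.555 and 1.44 CPM in IL27v. In EV, Myh8 was at 0 in all 12 libraries, also in the muscle-rich ones.

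The 20 genes outside the list most like it, by Pearson's r over 23 libraries between their log2(CPM + 0.5) and the mean of the 37, were led by Trdn (0.991), Hrc (0.99), Pgam2 and Ldb3 (0.988) and Klhl31 (0.987). Of these 20, 14 belong to the other muscle lists. The 6 outside them were Klhl31, Hfe2, Mylk4, Sh3bgr, Pdlim3 and Txlnb. Trdn, a junction protein of the reticulum, had a median of 10.7 CPM in IL27v and 0.097 CPM in EV. These values were picked from 13700 genes and are a description.

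Markers of other tissues were read in the same libraries, and their part in the results was not tested. Smooth muscle genes summed to 53.5 to 343 CPM in IL27v and 116 to 507 CPM in EV, and edgeR called 1 of 8 higher, Synpo2 (2.09 ± 0.42). These sums were mostly Smtn, with medians of 282 CPM in IL27v and 279 CPM in EV. Acta2, Myh11, Tagln and Cnn1 had far lower medians and were highest in IL27v docetaxel 1, at 12.1, 7.5, 13.4 and 5.16 CPM. Cardiac markers stayed at 2.11 to 8.59 CPM in IL27v and 1.29 to 10.1 CPM in EV, and edgeR gave an estimate for 3 of the 7, none of them called (1 at an unadjusted p under 0.05; DESeq2 called 0 of 4 tested). Erythroid genes summed to 21.2 to 1580 CPM in IL27v and 10.4 to 82.6 CPM in EV, and 4 of 6 were called higher, all globins. Of the keratinocyte markers 7 of 11 were called higher, and Krt16 (5.63 ± 0.80) had the smallest p but not the largest difference. Their sum was high only in IL27v docetaxel 1 and 2 and IL27v anti-PD-L1 1. Beside all these marker calls, 2.28% of all genes tested were called higher in IL27v. EdgeR gave no estimate for 1 smooth muscle, 3 keratinocyte and 1 adipocyte marker. Of the adipocyte markers 1 of 8 was called higher, Car3 (3.06 ± 0.64), which muscle also makes. Its levels were 11.2 to 19.0 CPM in the 3 muscle-rich EV libraries, 0 to 5.23 CPM in the other 9 and 10.4 to 35.7 CPM in IL27v.

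Neutrophil granule genes marked a set of libraries that crossed the vectors. Their sum was 34.5 and 29.9 CPM in IL27v media 1 and 2, 28.9 CPM in EV anti-PD-L1 2, and 26.8 and 26.1 CPM in EV cabozantinib plus IL-27 1 and 2. In every other library, 9 IL27v and 9 EV, the sum was at most 0.219 CPM. The 3 muscle-rich EV libraries thus also carried these genes, which the 9 muscle-poor EV libraries lacked, while 8 IL27v libraries were muscle-rich without them. With whole groups at 0, edgeR gave no usable estimate of a vector difference for any of the 5 genes. The labels name no batch or collection date, so how these libraries were handled is not known. Whether any libraries were exchanged was not tested, and the vector means and EV exposure ratios hold for the libraries as labelled.

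**Figure D5:**
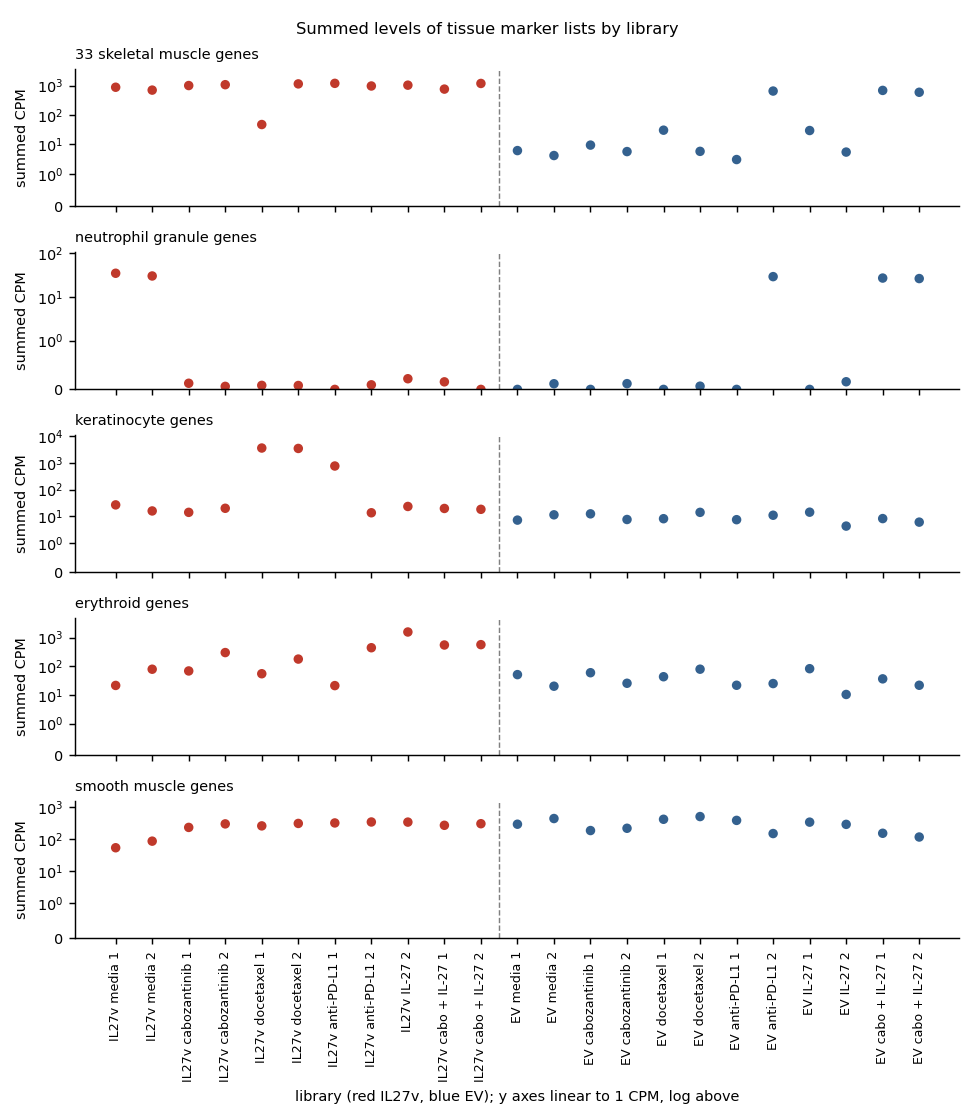
Summed CPM in each library (IL27v red, left, and EV blue, right) of 33 skeletal muscle genes and of markers of neutrophil granules, keratinocytes, erythroid cells and smooth muscle. The smooth muscle sum is mostly Smtn. Axes are linear to 1 CPM and logarithmic above, and the 3 EV libraries with high muscle sums are also those with 26.1 to 28.9 CPM of neutrophil granule genes.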

How the data were processed

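RNA from sections of tumour pieces was sequenced as stranded poly(A) libraries, per the labels' protocols, after an RNA integrity check (minimum 8). The submitters' processing notes name cutadapt, HISAT2, StringTie, DESeq2 and build GRCm38; no source used here gives versions or the counting step. The authors deposited estimated counts in a single table, as whole numbers for 55401 identifiers. They are not plain fragment counts, since 143 genes hold 1 identical nonzero value in all 23 libraries and 31.7 to 35.3% of counts from 1 to 40 are multiples of 4. Symbols, spans and exon lengths came from GENCODE for 55141 identifiers, and promoter windows from RefSeq.

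Samples were grouped by title, because 3 samples exposed to IL-27 repeat 1 library name in their descriptions. The 37 genes and all other lists were chosen with earlier results of these data known. All 37 could be named, with up to 4 genes per other list by smallest p, any marker, and the 20 genes most like the 37 among those with a mean of at least 1 CPM. A few further members of the other lists (Atp2a2, Tpm1, Myh3, Myh8 and the regulators at or near 0) are named for their levels and were chosen after those were seen.

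EdgeR 4.0.16 in R 4.3.3 fitted 1 model of 12 groups (TMM, filterByExpr, quasi-likelihood, Benjamini-Hochberg over 24440 genes; 11 residual degrees of freedom, biological coefficient of variation 0.623). The fit was tested on simulated data. The vector contrast averages IL27v minus EV over the 6 conditions. P-values measure the spread between these libraries, which may be technical. Alternatives were DESeq2 1.42.0, RLE size factors, a replicate block, a stricter filter (1 CPM in 4 libraries) or none, and leaving out each library. For the summed level and the slow share they were library totals, means of log2 levels and values not divided by length. Replicate numbers did not pair libraries. Of the 37 genes, 22 overlap another gene's span, and for 6 (Atp2a1, Mb, Myl3, Tnnc1, Tnnc2 and Tnnt3) that gene reaches 1 CPM, so their levels are uncertain if counting ignored strand. The result of 1 marker list is not reported here.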

Additional observations from a re-analysis of the deposited data

Results flagged for a closer look

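Actn3, the fast-fibre alpha-actinin, was the only 1 of the 37 genes for which an exposure differed between vectors by edgeR's test of that difference with the low-count filter. DESeq2 called 18 of the 37 for the same exposure and the unfiltered edgeR fit 33. Its response to cabozantinib plus IL-27 in IL27v minus that in EV was -13.7 on the log2 scale. The fitted size depends on the small count added to libraries at 0, since both EV media libraries had no Actn3 counts. The difference was -13.3 to -13.7 (adjusted p = 3.39e-33 to 0.0537) in DESeq2, with RLE size factors, with either other filter and with the replicate block, and under the block it no longer passed the edgeR threshold (adjusted p = 0.0537).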

How the results depend on the processing

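DESeq2 and the fit with no low-count filter called more of the 37 genes in exposure contrasts than the 0 or 1 of edgeR with the filter, and the cause was not tested. In EV against media, DESeq2 and the unfiltered fit called 6 and 5 genes for cabozantinib, 9 and 14 for docetaxel, 16 and 33 for anti-PD-L1, 22 and 33 for cabozantinib plus IL-27, and 9 and 14 for IL-27. For the vector interaction they called 6 and 6 for cabozantinib, 9 and 14 for docetaxel, 12 and 29 for anti-PD-L1, 18 and 33 for cabozantinib plus IL-27, and 7 and 9 for IL-27. Over all genes the unfiltered fit called 87, 154, 162, 469 and 218 of 33123 in the EV contrasts and 829, 531, 1010, 1275 and 262 in the interactions, in the same order. The replicate block called 0 for the cabozantinib plus IL-27 interaction, against 1 without it, and moved no other count of members. The correlations of same-numbered libraries' deviations ran from -0.343 to 0.299 over 55 pairs of groups (median 0.0136), so the numbers were not taken as pairing. RLE size factors and the stricter filter changed no count of the 37 genes or of the other muscle genes past 1.5 times. Counts over all genes moved more. For IL27v cabozantinib plus IL-27 against media, RLE size factors called 90 genes higher, against 219 in the main fit. For the cabozantinib interaction both settings called 0 genes higher, against 5.

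Leaving out 1 library at a time gave 1.63 to 2.04 for the summed level difference, -43.9 to -37.5 points for the slow share and 16 to 31 for the other muscle genes called (17 without IL27v docetaxel 2, EV media 1 or EV cabozantinib plus IL-27 2, and 26 without IL27v docetaxel 1). EV IL-27 against media gave 0 to 1 (1 without EV IL-27 2). The interaction gave 0 to 6 for anti-PD-L1 (6 without EV anti-PD-L1 1). For cabozantinib plus IL-27 it gave 0 to 12, with 12 without EV anti-PD-L1 1 or 2 and 2 without IL27v docetaxel 1 or either EV cabozantinib library. It gave 0 without any 1 library of the groups in that contrast except IL27v media 2. All other exposure and interaction counts of the 37 genes stayed at 0. The vector count of the 37 ranged from 25 (without IL27v docetaxel 2) to 33. With 1 library left in an arm, its spread was taken from the other groups. Without the single IL27v IL-27 library its contrasts could not be fitted.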
